A study of Danio rerio with 3 samples.

Results

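In a zebrafish liver with β-catenin-driven hepatocellular carcinoma (HCC), 409 cells with high levels of s100a10a, s100a10b and icn were compared with 734 cells with low levels of the same genes. By their markers these were hepatocytes, apart from 1 high cell described below. The cells came from 1 single-cell RNA sequencing library, in which each transcript molecule carried a unique molecular identifier (UMI). Cells were chosen by their measured values: of 2866 cells in the library, 1938 held 10000 or more UMIs, and of these a cell was called high when s100a10a, s100a10b and icn together made up 0.2% or more of its UMIs and low when they made up 0.05% or less. The remaining 795 deep cells lay between the limits. The whole series held 6055 cells.

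The study sequenced 1 liver each from adult male zebrafish at 6 months post fertilization. The HepABC HCC fish carried Tg(fabp10a-pt-beta-catenin), in which the hepatocyte promoter fabp10a drives an activated Xenopus β-catenin, together with the Wnt reporter Tg(7xTCF-Xla.Siam:mCherry), and received no treatment. The CreLox HCC fish carried Tg(fabp10a-CreERT2;fabp10a-flox-beta-catenin), so that activated β-catenin followed Cre recombination in hepatocytes, and the no HCC fish carried Tg(fabp10a-flox-beta-catenin) alone. Both were exposed to 10 µM 4-hydroxytamoxifen from day 3 to day 6 post fertilization. With 1 fish per group there was no replicate, and the high and low cells shared 1 fish, 1 dissociation and 1 library. Ratios are therefore given with an exact 95% interval that covers counting error only, and no test was made. Exact intervals of shares of cells take cells of 1 fish as separate draws and do not cover differences between fish.

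S100A10 is a small S100 family protein that in mammals partners with annexin A2 at the inner face of the plasma membrane. Zebrafish have 2 copies, s100a10a and s100a10b, and icn (ictacalcin) encodes another S100 family protein. Normal hepatocytes secrete most plasma proteins and carry out drug, amino acid and lipid metabolism, and epithelial cells that change shape or motility remodel actin and cell junctions. In the nucleus β-catenin switches on Wnt target genes together with TCF factors, and at the cell surface it binds the tail of E-cadherin.

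The selected cells did not form a separate group on the score (s100a10a, s100a10b and icn as a percent of a cell's UMIs). Its median was 0.288% in high cells and 0.0135% in low cells, and the numbers of cells fell gradually across both limits. The 5 deep cells just above the high limit had scores of 0.20001% to 0.20135% and the 5 just below it 0.19875% to 0.19965%. At the low limit, the 5 cells just inside had 0.049273% to 0.049981% and the 5 just outside 0.050125% to 0.05075%. Scores within 10% of the limit were found in 125 cells at the high limit and 62 at the low limit, so both groups are ranges of a continuous score. As fixed by the rule, s100a10a stood at 1154 CPM (a gene's UMIs summed over the cells of a group, per 1e6 UMIs of that group) in high cells and 49.2 CPM in low cells, s100a10b at 828 and 59.4 CPM, and icn at 1399 and 70.7 CPM. The 2 s100a10 copies are similar genes between which counting can split reads. Across the 1938 deep cells, the levels of s100a10b and icn had a Spearman rho of 0.70, s100a10a and icn 0.49, and s100a10a and s100a10b 0.39, a description over cells that share 1 library.

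**Figure D1:**
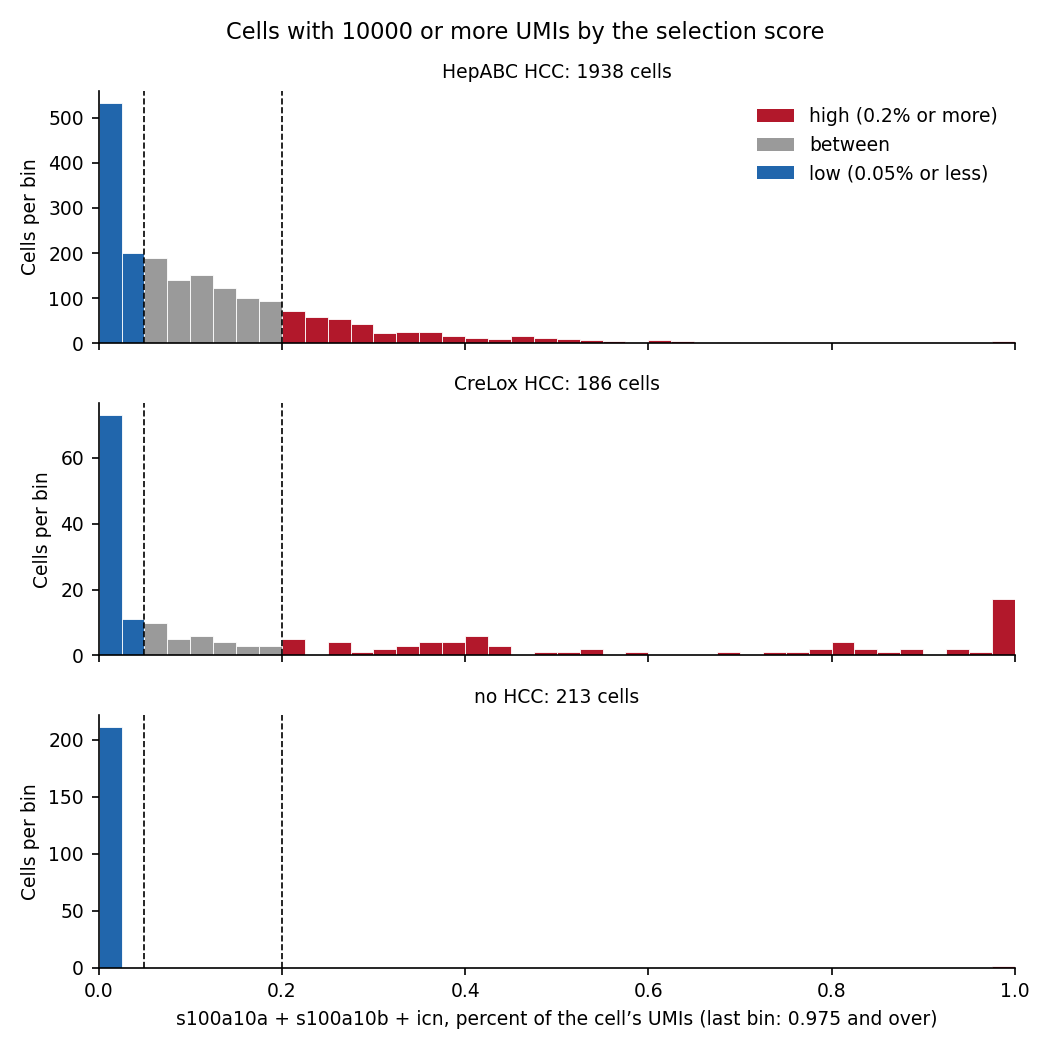
Number of cells with 10000 or more UMIs (y axis) by the percent of UMIs from s100a10a, s100a10b and icn (x axis, bins of 0.025) in each liver. Red bars are cells at 0.2% or more, grey bars cells between the limits (dashed lines) and blue bars cells at 0.05% or less. In HepABC HCC, 409 of 1938 cells were red and the histogram shows no gap at either limit; the last bin holds all cells beyond the axis.

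Apart from 1 high cell, both groups carried the hepatocyte transcriptome. fabp10a, the liver fatty acid binding protein, made up a median 4.08% of UMIs in high cells and 3.32% in low cells. It was under 1% in 1 high cell, at 0.234%, and in 0 low cells. That cell also had the highest score, 1.81%, and its hepatocyte marker genes made up 1.811% of UMIs. Results that rest on it are given with and without it. The 20 hepatocyte marker genes together made up a median 14.3% of UMIs in high cells and 16.1% in low cells. Defining genes of other liver cells were scarce in both. epcam, a bile duct epithelial gene, had 5 UMIs in high cells and 5 in low cells, and ptprc, the pan-leukocyte gene, 4 and 6. fli1a, an endothelial gene, had 2 and 0, and hand2, a stellate gene, 7 and 0. The wider cholangiocyte list was not scarce. Its 18 markers in the library, without s100a10b, summed to 3445 CPM in high cells and 1800 CPM in low cells, and 16 were higher in high cells. The 23 immune markers in the library summed to 108 CPM in high cells and 118 CPM in low cells, the 11 endothelial markers to 6.91 and 3.48 CPM, and the 12 stellate markers to 49.3 and 13.9 CPM, of which steap4 made up 28.6 CPM in high cells and 12.9 CPM in low cells. Of these 12, 10 were higher in high cells, 2 were at 0 UMIs in high cells and 5 in low cells. Without steap4 they had 195 UMIs in high cells and 14 in low cells, and 182 of the 195 lay in the 1 high cell low in fabp10a, among them 133 of ifitm1, 24 of colec11 and 6 of hand2. Without that cell, 364 genes were at least 1.5-fold higher and 213 lower, against 368 and 209 with it. The exocrine pancreas markers, led by the amylase gene amy2a, summed to 27 and 148 CPM. Markers of immune, endothelial, stellate, erythroid and thrombocyte cells, without f5 and tspo, which hepatocytes held too, made up 0.1% or more of UMIs in 4 high cells and 9 low cells.

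High cells were deeper than low cells, with a median of 22303 against 19163 UMIs and 2176 against 1955 genes per cell. Mitochondrially encoded transcripts made up a median 5.95% of UMIs in high cells (quartiles 4.77% and 8.24%) and 5.29% in low cells (quartiles 4.21% and 7.88%). Cells between the limits were as deep as high cells, with a median of 22346 UMIs. With each cell thinned to 10000 UMIs, 419 genes were at least 1.5-fold higher and 243 lower in high cells, against 368 and 209 without thinning. Of the cell barcodes in the HepABC HCC library, 8 also occurred in CreLox HCC and 1 in no HCC, which touched 4 high cells and 1 low cell.

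Among 3215 genes other than the 3 selection genes with a mean of 10 CPM or more over both groups, 368 (11.4%) were at least 1.5-fold higher in high cells and 209 (6.5%) at least 1.5-fold lower. These shares are the background against which the lists below are read. The median log2 ratio of all 3215 genes was 0.05, with quartiles of -0.20 and 0.31. Under TMM scaling, which takes the bulk of genes as unchanged, the median was -0.05 and the counts were 260 higher and 299 lower, so higher genes made up 63.8% of the genes past 1.5-fold under CPM and 46.5% under TMM. The counts at 2-fold were 116 higher and 59 lower.

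**Figure D2:**
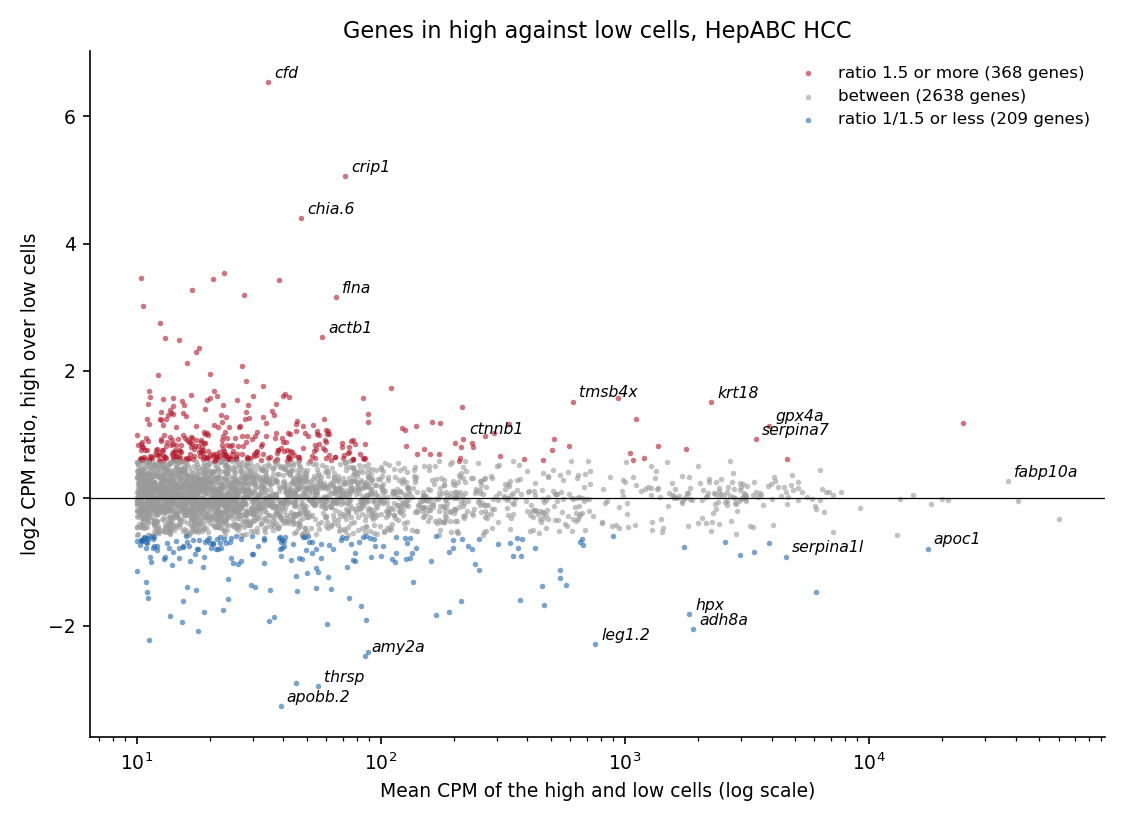
Mean CPM of high and low cells (x axis, log scale) and log2 CPM ratio of high over low cells (y axis) for 3215 genes. Red points are the 368 genes at 1.5-fold or higher, blue points the 209 genes at 1.5-fold or lower, and selected genes are named.

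crip1 and flna, taken as markers of these cells with earlier results of these data known, were both among the 15 highest ratios. crip1, a small LIM domain protein, stood at 139 CPM in high cells and 4.15 CPM in low cells, a ratio of 33.5 (interval 26 to 44). flna, the actin cross-linker filamin A, stood at 118 CPM in high cells and 13.1 CPM in low cells, a ratio of 8.98 (7.71 to 10.5). UMIs of flna were present in 85.8% of high cells and 21.4% of low cells, and in 66.0% and 10.6% after each cell was thinned to 10000 UMIs. Cells of the same library with immune markers at 1% or more of UMIs, 287 cells with a median of 1914 UMIs, held a flna UMI in 1.05% of cells. Such shares fall with depth, so 1.05% gives no background share for the deeper cells. In CPM, flna stood at 4.41 in the immune-marker cells, from 3 cells with a UMI. The same immune-marker cells held crip1 at 501 CPM and actb1 at 1953 CPM, while the summed immune markers were no higher in high than in low cells. The part of RNA from immune cells in the crip1 and actb1 values was not tested.

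The other genes of the highest 15 came from several families. chia.6, a chitinase family gene, stood at 90.3 CPM in high cells and 4.28 CPM in low cells (ratio 21.1). marcksl1a, a MARCKS-like gene, had a ratio of 11 and gpm6aa, a membrane glycoprotein gene, 10.8. cntfr, which encodes a cytokine receptor subunit, had a ratio of 9.70 and rln1, a relaxin gene, 5.72. A pair of lipid synthesis genes was also high. elovl6, a fatty acid elongase, stood at 18.9 CPM in high cells and 2.34 CPM in low cells (8.08), and hmgcra, the rate-limiting enzyme of cholesterol synthesis, at 21.7 and 3.21 CPM (6.75). The sterol synthesis list did not move as 1 group. Of its 6 measured genes, 2 were higher, hmgcra and insig1 (2.55), and 2 lower, tm7sf2 (0.58) and tmem97 (0.64). actb1 is described below with the actin genes, and abracl had a ratio of 5.58. The genes si:dkey-222f2.1, CR936442.1 and zgc:77748 had ratios of 11.6, 10.8 and 9.16. The highest ratio, 93.0 for cfd (complement factor D), rested on the high cell low in fabp10a, which held 632 of its 644 UMIs. Without that cell cfd stood at 1.28 CPM in high cells, below the minimum, with a ratio of 1.74.

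Actin and motility genes were higher as a group. Of 33 genes on the actin cytoskeleton list past the minimum, 20 were at least 1.5-fold higher and 0 lower, with a median log2 ratio of 0.78, against 11.4% and 6.5% of all genes. Like the other lists, this list was chosen with earlier results of these data known, so its count is a description. The 20 include crip1 and flna, which were also taken as markers with those results known and so add nothing to the count. actb1, a cytoplasmic actin, stood at 98.1 CPM in high cells and 16.9 CPM in low cells (5.79), and its more abundant paralog actb2 at 2251 and 1318 CPM (1.71). tmsb4x, the actin monomer binding thymosin, stood at 912 CPM in high cells and 318 CPM in low cells (2.87). The difference thus took in actin itself and proteins that hold its monomers. Regulators of the filaments were higher too. cfl1, the filament-severing cofilin, stood at 354 CPM in high cells and 179 CPM in low cells (1.98), pdlim1, an α-actinin binding protein, at 30.3 and 5.89 CPM (5.14), and myl12.1, a myosin light chain, at 262 and 143 CPM (1.83). The S100 and annexin list, without the selection genes, had 5 of 5 measured members higher, all of them annexins. No other S100 gene on the list passed the minimum. Annexins bind membranes in the presence of calcium. anxa4 stood at 758 CPM in high cells and 429 CPM in low cells (1.77), anxa3b at 31.7 and 12.9 CPM (2.46) and anxa11a at 42 and 20.5 CPM (2.05). anxa1a had a ratio of 2.49, but 61.1% of its UMIs in high cells lay in the cell low in fabp10a, and without that cell its log2 ratio was -0.05. Without it the S100 and annexin list had 3 of 4 members higher.

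Of 4 measured intermediate filament genes, 3 were higher and 1 lower. krt18, a keratin of simple epithelia, stood at 3350 CPM in high cells and 1172 CPM in low cells (2.86), and its partner krt8 at 1456 and 943 CPM (1.54). The keratin krt92 was lower, at 96.3 CPM in high cells and 174 CPM in low cells (0.55).

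Junction genes were mostly higher. Of 17 junction and adhesion genes, 11 were at least 1.5-fold higher and 0 lower, with a median log2 ratio of 0.63. cdh1, the epithelial cadherin that holds β-catenin at adherens junctions, stood at 62.2 CPM in high cells and 27.6 CPM in low cells (2.25). cldn15la, a claudin of tight junctions, stood at 227 and 99.2 CPM (2.28). tm4sf5, a tetraspanin-like protein, stood at 81.1 and 38.5 CPM, and cd63, a tetraspanin, at 305 and 167 CPM. Of the 7 measured cholangiocyte markers left after s100a10b, 6 were higher, namely anxa4, cldn15la, cdh1, tm4sf4, cldnc and lgals2b. These are annexin, junction, tetraspanin-like and galectin genes, and lgals2b, a β-galactoside-binding lectin, stood at 1575 CPM in high cells and 663 CPM in low cells (2.38). The defining bile duct genes were nearly absent: epcam had 5 UMIs in high cells and 5 in low cells and sox9b 1 and 0.

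The β-catenin genes included both endogenous copies and the transgene. Endogenous ctnnb1 stood at 287 CPM in high cells and 150 CPM in low cells, a ratio of 1.92 (1.81 to 2.03), and its paralog ctnnb2 at 15.8 and 11.6 CPM (1.37). The Xenopus transgene (xeno-Bcat) was at 25.4 CPM in high cells and 18.9 CPM in low cells, a ratio of 1.35 (1.13 to 1.60), below the 1.5-fold limit. These 3 genes are similar in sequence, so that reads may be split between them.

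The Wnt target genes did not move as 1 group. Of 4 measured targets, myca (20.1 against 8.03 CPM, ratio 2.50) and ccnd1 (1.55) were higher, glula, glutamine synthetase, was lower (31.1 against 49.7 CPM, ratio 0.63, interval 0.55 to 0.72), and jun, which is not specific to Wnt, had a ratio of 0.87. Of the 293 glula UMIs in high cells, 53 lay in the cell low in fabp10a, and without it the log2 ratio of glula was -0.96. With limits of 0.4% and 0.02% and that cell kept, it was 0.00065. axin2, the feedback inhibitor of the pathway, was below the minimum of 10 CPM at 4.68 and 2.88 CPM, with an interval of the ratio from 1.04 to 2.53, mtor was at 7.76 and 5.35 CPM (1.04 to 2.02), and wif1 at 0.531 and 1.14 CPM (0.13 to 1.32). Counting the cells with 2 or more of axin2, mtor, glula, myca and wif1, 23.5% of high cells and 16.2% of low cells qualified, but high cells were deeper. After each cell was thinned to 10000 UMIs, the shares were 7.09% of high cells (29 of 409, exact interval 4.8 to 10.02%) and 4.77% of low cells (35 of 734, 3.34 to 6.57%). For 1 or more of these genes the thinned shares were 43.8% of high and 43.2% of low cells. For 3 or more they were 0% and 0.273%. The shares were not tested against each other. Free RNA can give UMIs of these genes to cells that do not express them, and the immune-marker cells were too shallow to give a background at that depth.

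The Wnt reporter of the HepABC HCC fish encodes mCherry, and the deposited table has a row of that name, described after its values were seen. The study's methods name Xenopus β-catenin as the sequence added to the reference of this library and do not name mCherry. The sequence behind the row is thus not given in the sources used here, and the row is read as the reporter by its name alone. The mCherry row had 91 UMIs in 12 of 409 high cells and 3 UMIs in 3 of 734 low cells, and 27 UMIs in 13 of the 795 cells between. The intervals given here again take cells of 1 fish as separate draws. Cells with an mCherry UMI were 2.93% of high cells (exact interval 1.53 to 5.07%) and 0.409% of low cells (0.0844 to 1.19%). The immune-marker cells, in which fabp10a does not drive β-catenin, had 0.697% (2 of 287) at a median of 1914 UMIs, against 22303 in high and 19163 in low cells. Of the 91 UMIs, 81 lay in 5 high cells with 10 to 23 UMIs each, and 1 cell between the limits held 11. No low cell held more than 1. The 5 cells had lower fabp10a (22142 CPM) than the other high cells (40956 CPM), and higher hpx (1487 against 804 CPM), jun (447 against 246 CPM) and cdh1 (112 against 61.3 CPM). Also lower in them were crip1 (3 UMIs, 17.6 against 141 CPM), anxa4 (405.5 against 764.8 CPM) and krt8 (1093 against 1462 CPM). The selection genes icn (2474 against 1379 CPM) and s100a10a (1875 against 1140 CPM) were higher. glula had 12 UMIs in the 5 cells (70.5 CPM, interval 36.4 to 123), against 30.4 CPM (26.96 to 34.2) in the other high cells. Of these 12 UMIs, 7 lay in 1 cell, and the intervals do not cover differences between cells. Their UMIs were too few to read axin2 or wif1. These are values of 5 cells of 1 fish.

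Hepatocyte and plasma protein genes were lower more often than higher. Of 19 measured hepatocyte markers, 5 were at least 1.5-fold lower and 0 higher, with a median log2 ratio of -0.42. hpx, hemopexin, the plasma carrier of heme, stood at 816 CPM in high cells and 2866 CPM in low cells (0.28). ahsg2, a fetuin, stood at 322 and 832 CPM (0.39), serpina1l, an α1-antitrypsin-like inhibitor, at 3175 and 5994 CPM (0.53), and vtnb, a vitronectin, at 509 and 848 CPM (0.60). The lower levels did not extend to every abundant secreted protein: tfa (transferrin) had a ratio of 0.99 and apoa1b 0.97. Of 68 plasma protein genes, 15 were at least 1.5-fold lower and 3 higher, with a median of -0.30.

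Secreted proteins were among the genes of lowest ratio. apobb.2, an apolipoprotein B gene, stood at 7.33 CPM in high cells and 70.5 CPM in low cells (0.10). The more abundant apolipoprotein B genes differed little, with apobb.1 at 1854 and 1760 CPM (1.05) and apoba at 354 and 355 CPM (0.996). The far more abundant apoc1 was lower by less than apobb.2, at 12776 and 22105 CPM (0.58). leg1.2, a secreted liver protein, stood at 259 CPM in high cells and 1260 CPM in low cells (0.21). spp2 stood at 24.6 and 96.2 CPM (0.26) and c4, a complement component, at 14.5 and 55.1 CPM (0.26). A few plasma proteins ran the other way. serpina7 stood at 4524 CPM in high cells and 2366 CPM in low cells (1.91) and agt, angiotensinogen, at 674 and 352 CPM (1.92). The largest difference in CPM of any gene was that of afp4.1, an antifreeze protein family gene named after its values were seen, at 33894 CPM in high cells and 14892 CPM in low cells (2.28).

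**Figure D3:**
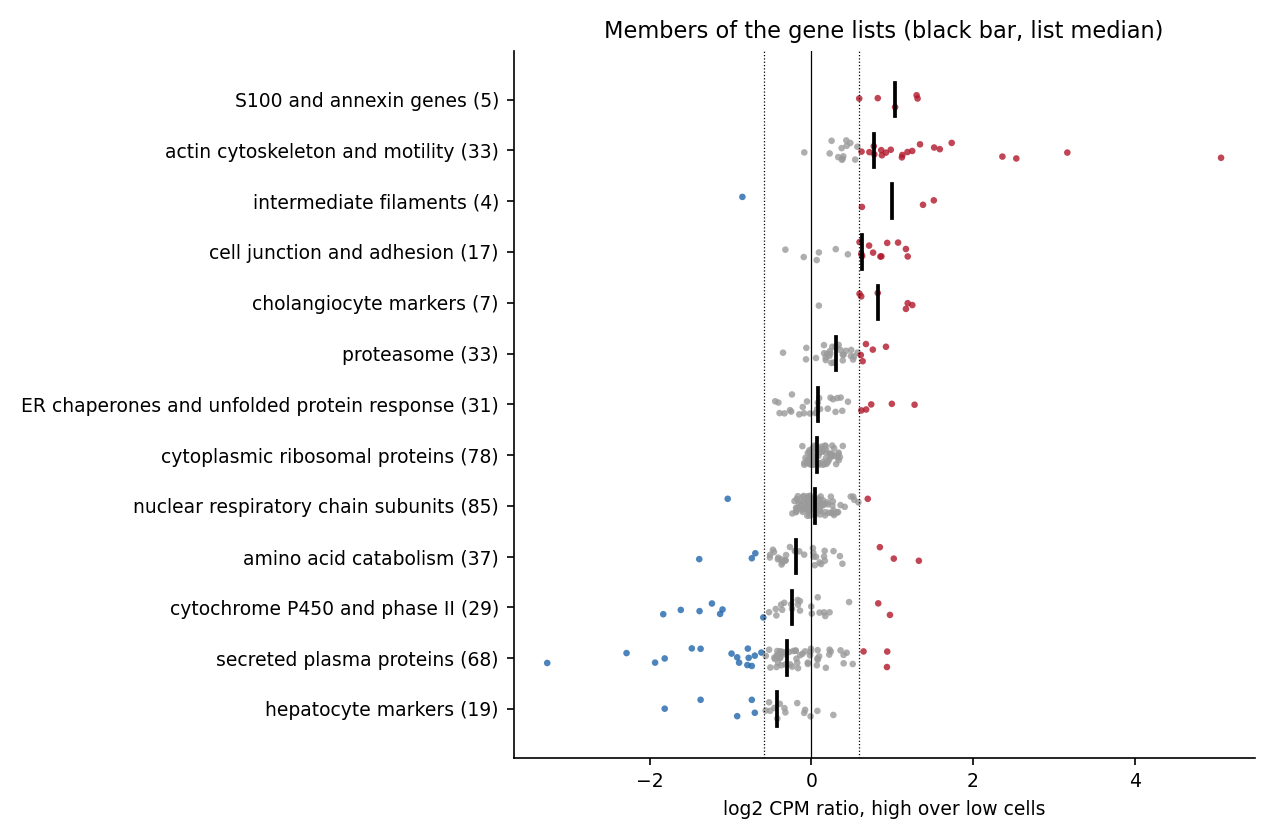
log2 CPM ratio of high over low cells (x axis) for each gene past the minimum, by gene list (number of genes in brackets); black bars are list medians, dotted lines mark 1.5-fold. Actin, annexin and junction genes lie to the right and hepatocyte markers and plasma proteins to the left, while 78 ribosomal protein genes stand close to 0.

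Metabolic genes were mixed between lists. The P450 and phase II list was lower more often than higher, with a median log2 ratio of -0.24. Of its 29 members, 2 were higher (6.9%, against 11.4% of all genes) and 7 lower (24.1%, against 6.5%). Lower were the glutathione transferases gsta.1 (0.28), gsta.2 (0.33), gstp1 (0.38) and gstr (0.46) and the P450 gene cyp4v8 (0.43), whereas cyp2r1 (1.96) and cyp3a65 (1.78) were higher. adh8a, an alcohol dehydrogenase, stood at 740 CPM in high cells and 3063 CPM in low cells (0.24). hsd17b3, a steroid dehydrogenase, stood at 36.7 and 138 CPM (0.27).

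Of 21 genes of glycolysis, gluconeogenesis and glycogen, 2 were at least 1.5-fold higher (9.5%, against 11.4% of all genes). In the same list 3 were lower (14.3%, against 6.5% of all genes). pklr, liver pyruvate kinase, stood at 2418 CPM in high cells and 4339 CPM in low cells (0.56) and fbp1b, of gluconeogenesis, at 1977 and 3179 CPM (0.62). aldoaa, of the aldolase A type, was higher at 80.5 against 40.0 CPM (2.01). Of 12 genes of fatty acid synthesis and storage, 3 were higher (25%, against 11.4% of all genes) and 2 lower (16.7%, against 6.5%). thrsp, a regulator of lipid synthesis, stood at 12.7 CPM in high cells and 97.7 CPM in low cells (0.13) and lpin1 had a ratio of 0.45, while the elongases elovl1b (3.12) and elovl5 (2.78) were higher. gpx4a, a glutathione peroxidase that reduces lipid peroxides, stood at 5363 CPM in high cells and 2432 CPM in low cells (2.21).

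Ribosomal and respiratory chain genes differed little. Of 78 cytoplasmic ribosomal protein genes, 0 were past 1.5-fold in either direction (median log2 ratio 0.07). Of 85 nuclear respiratory chain genes, 1 was higher and 1 lower (0.04). The proteasome list had 5 of 33 higher (15.2%, against 11.4% of all genes) and 0 lower (0.31). It had 2 higher under TMM scaling and 16 at limits of 0.4% and 0.02%. The ER chaperone list had 5 of 31 higher (16.1%, against 11.4% of all genes) and 0 lower. Its median log2 ratio was 0.08, against 0.05 for all genes. Of the 5 higher, hspa5, the ER chaperone BiP, had 46.9 and 19.3 CPM (2.42). ctgfa, a Yap and Taz target, stood at 17.2 CPM in high cells and 5.35 CPM in low cells (3.22). Of the other measured targets, amotl2b had a ratio of 1.69, and amotl2a stood at 30.8 and 32.9 CPM (0.94). Of 15 Yap and Taz targets in the library 12 were below the minimum, so the list was not read as a group.

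Levels were also read along the score. Over 6 score ranges with limits at 0.02, 0.05, 0.1, 0.2 and 0.4%, flna stood at 10.2, 17.6, 33.7, 58.7, 105 and 160 CPM, while crip1 stood at 2.09, 7.34, 15.6, 43.3, 109 and 239 CPM. hpx stood at 3070, 2551, 1975, 1437, 921 and 470 CPM. Of the 368 genes at 1.5-fold or higher, 216 were higher at every step, and of the 209 at 1.5-fold or lower, 135 were lower at every step. Of all 3215 genes, 357 were higher and 260 lower at every step. The end ranges lie within the groups that chose these genes, so the counts are a description. glula stood at 50.2, 48.8, 30.5, 28.3, 25.4 and 50.2 CPM, and without the cell low in fabp10a its level in the last range was 26.3 CPM. Median depth was 18289 UMIs in the lowest range and 20837 to 22349 in the other ranges.

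**Figure D4:**
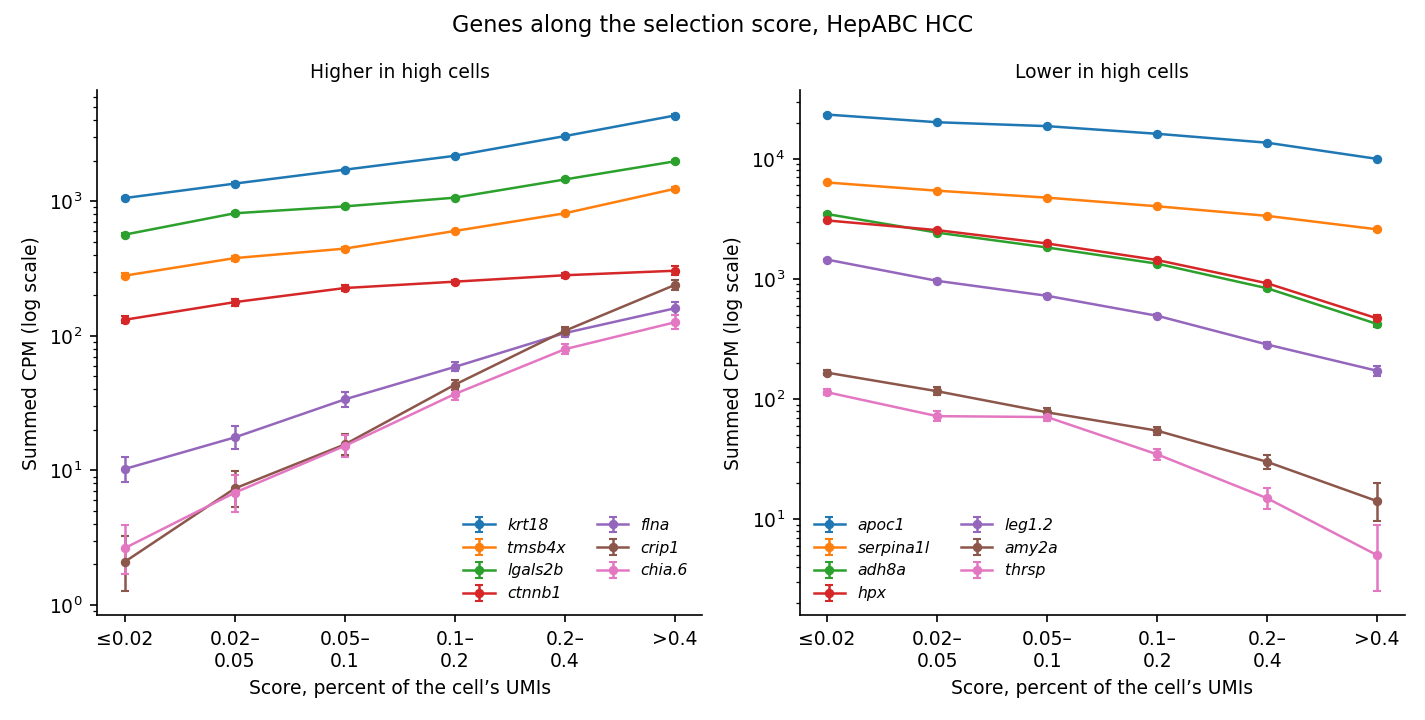
Summed CPM (y axis, log scale) of 7 genes that were higher (left) and 7 that were lower (right) in high cells, in 6 ranges of the score (x axis); bars are 95% Poisson intervals, which cover counting error only. flna, crip1 and chia.6 climb at each step and hpx, adh8a and amy2a fall.

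UMIs of crip1 were found in part of the high cells only. In all, 159 of 409 high cells held a crip1 UMI (38.9%), as did 31 of 734 low cells (4.22%); after thinning to 10000 UMIs the shares were 33.5% and 2.32%. As crip1 is held by immune cells (158 of 287 immune-marker cells had a UMI), no cell type lacking it was available as a background share. High cells with and without a crip1 UMI had like levels of flna (117 and 118 CPM), actb1 (94.97 and 100.2 CPM) and fabp10a (41283 and 40168 CPM). pdlim1 (37.8 and 25.2 CPM) and tagln2 (189 and 156 CPM) were higher in those with a UMI, and amy2a (19.6 and 30.9 CPM) and mCherry (5.29 and 12.6 CPM) lower. The mCherry values rest on few cells. Of 91 mCherry UMIs in high cells, 81 lay in 5 cells, of which only the cell with 18 held crip1. anxa1a stood at 37.3 and 6.93 CPM, and the cell that held most of its UMIs was among those with crip1. The cells had median depths of 21922 and 22340 UMIs and median scores of 0.309% and 0.275%.

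The same limits were applied to the other 2 livers. In CreLox HCC, 71 of 186 deep cells were past the high limit and 84 under the low limit; in no HCC, 2 of 213 were past the high limit, too few to compare. These 2 no HCC cells had fabp10a at 0.756% and 0.716% of UMIs, against a median of 4.08% in the HepABC high cells. In CreLox HCC, some high cells carried markers of other cell types, so values are given for the 62 high and 81 low cells left without them (chosen after seeing the data). Across 3285 genes, 29.1% were at least 1.5-fold higher and 7.43% lower in these CreLox high cells; with all deep cells the shares were 32.4% and 7.06%. The median log2 ratio was 0.27, so CreLox ratios stand on a raised level.

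Of the 309 HepABC-higher genes measured in CreLox HCC, 240 (77.7%) were also at least 1.5-fold higher and 0 lower; of 187 HepABC-lower genes, 102 (54.5%) were lower and 7 higher. With the median taken off, 192 of 309 were still higher, against 16.6% of all genes, and 127 of 187 lower, against 15.01%. The same selection genes define both groups, so this is a side-by-side description, and the cells come from 1 fish each. All 9 of the 15 highest-ratio genes that passed the CreLox minimum were higher and all 14 tested of the 15 lowest were lower. The minimum is a mean over both groups, so genes scarce in CreLox low cells could pass it only by being higher. Among the 9 these were chia.6, cntfr (66.1 and 2.25 CPM), gpm6aa (57.7 and 0.451 CPM), rln1 (51.7 and 0.451 CPM) and abracl (24.6 and 2.25 CPM). Their direction was thus fixed by the minimum, which also applied to the 309 genes. In CreLox HCC, flna stood at 165 CPM in high cells and 11.7 CPM in low cells (14.1, interval 9.42 to 21.99), chia.6 at 103 and 1.35 CPM (76.0), actb1 at 341 and 81.5 CPM (4.19) and afp4.1 at 35278 and 10097 CPM (3.49). hpx stood at 1851 and 5380 CPM (0.34) and thrsp at 110 and 575 CPM (0.19). crip1 was low, at 9 UMIs in high cells and 1 in low cells, 5.41 and 0.451 CPM. lgals2b had a ratio of 48.3 (1174 and 24.3 CPM), against 2.38 in HepABC HCC, and fabp10a was 0.94 against 1.21. ctnnb1 was at 153 and 63.5 CPM (2.40), and xeno-Bcat at 306 and 340 CPM (0.90, interval 0.80 to 1.01). Deep cells of the no HCC fish, which carried the floxed transgene without Cre, held xeno-Bcat at 298 CPM. In CreLox HCC this row therefore cannot tell recombined from unrecombined transcript. tmem97, a sterol-related gene, ran the other way (3.22 in CreLox HCC, 0.64 in HepABC HCC). CR936442.1 had 1 UMI in high cells and 4 in low cells.

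**Figure D5:**
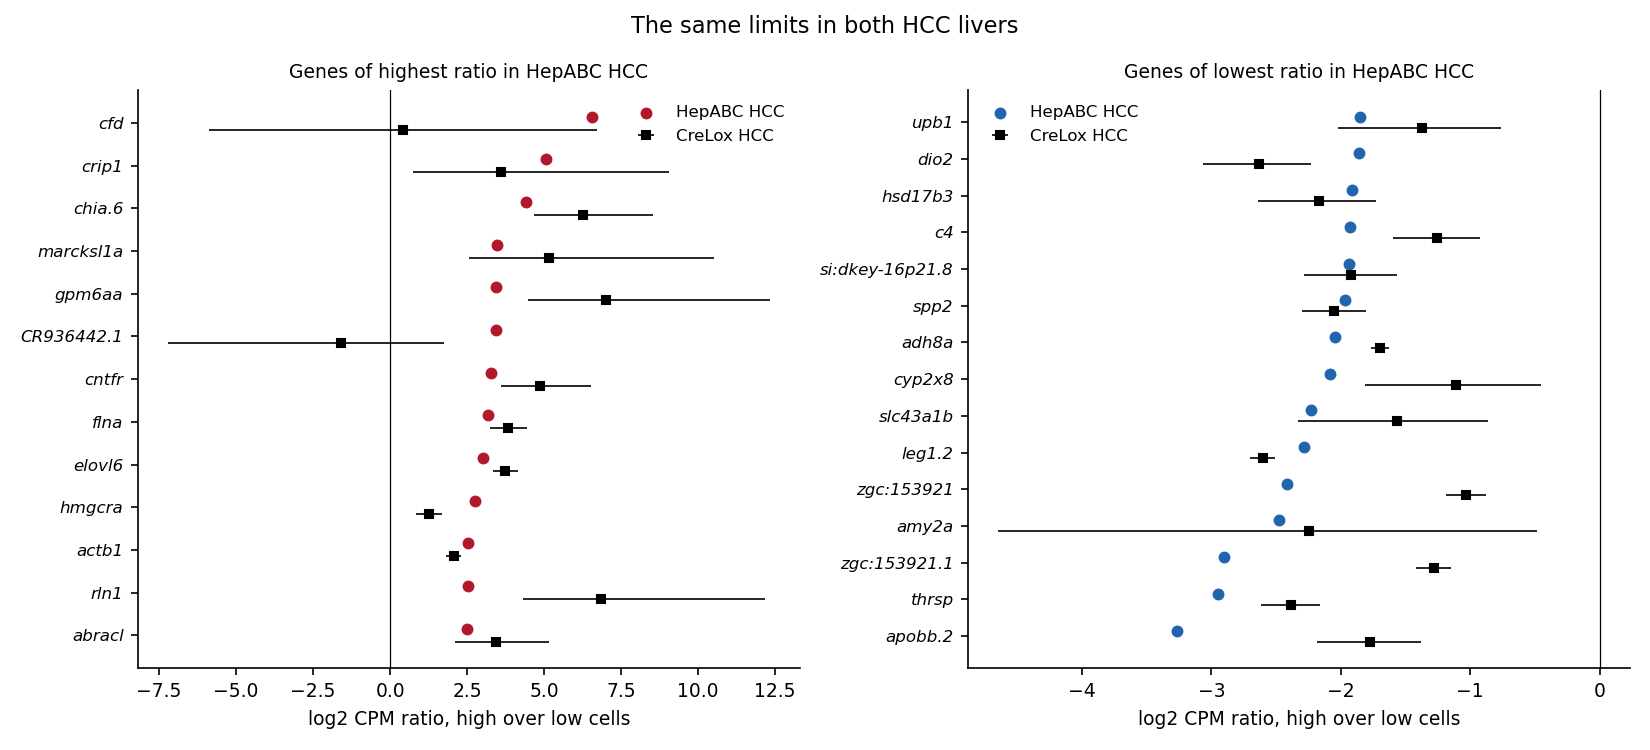
log2 CPM ratio of high over low cells (x axis) of the genes with the highest (left) and lowest (right) ratios in HepABC HCC, in HepABC HCC (coloured) and CreLox HCC (black squares, with 95% counting intervals, cells of other types left out). The 15 lowest genes all lie below 0 in both livers, with wide intervals where UMIs are few; CR936442.1 lies on the other side in CreLox HCC and si:dkey-222f2.1 and zgc:77748, at 0 UMIs in CreLox low cells, are not drawn.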

How the data were processed

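Per the labels and the study's methods, the authors made the deposited UMI counts per gene and cell with Cell Ranger 2.2.0 from 10x Genomics 3′ libraries, on a zebrafish reference with transgene sequences added, then removed empty droplets and cells of outlying quality. Counts were summed over the cells of each group and scaled to CPM with Python 3.11.15, numpy 2.4.6, scipy 1.17.1 and pandas 2.3.3. TMM factors came from edgeR 4.0.16 in R 4.3.3. Genes entered at a mean of 10 CPM, and 1.5-fold was the limit for higher or lower. Ratio intervals are exact for a pair of Poisson counts (95%), and the ratio script was tested on simulated data.

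Members and lists were chosen with earlier results of these data known. Genes named were the 15 highest and 15 lowest ratios, the Wnt and β-catenin genes, and from each list up to 4 of the highest, lowest and most abundant. Simulated doublets marked 4 high and 9 low cells, which were kept. Alternatives changed scaling, cell weighting, minimum, fold, limits, score genes, depth, mitochondrial share, other cell types and doublets. Leaving out each gene's top cell, mCherry cells, CreLox HCC cells of other types, f5 and tspo from the marker lists, and the 1 high cell under 1% fabp10a were added after seeing the data, as were the crip1 and mCherry splits.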

Additional observations from a re-analysis of the deposited data

How the results depend on the processing

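Of 206 named genes under 17 settings (3497 log2 ratios), 7 values were counted as reversed. This count does not cover genes that differed little, such as rps2 (log2 ratio 0.05915). TMM scaling alone moved the median log2 ratio of all genes from 0.05118 to -0.05081 and can turn the sign of such genes. All 30 genes of highest and lowest ratio stayed past 1.5-fold in each setting. For cfd, the ratio of 1.74 without the high cell under 1% fabp10a came from 1.28 CPM in high cells, below the minimum. anxa1a turned to -0.2129 in cells of 10000 to 20000 UMIs, -0.09636 without cells with other-type markers, -0.07293 with f5 and tspo off those lists and -0.04503 without its top cell, which is the high cell under 1% fabp10a. hmox1a turned to 0.1799 in cells of 10000 to 20000 UMIs, and glula to 0.0006492 at limits of 0.4% and 0.02%, with that cell kept. The cause for hmox1a was not tested.

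Counts moved with the settings. Higher and lower genes numbered 91 and 93 of 1064 at a mean CPM of 50, 1005 and 485 of 7012 at 2, and 2960 and 1624 of 12281 with 1 UMI in each group. They numbered 116 and 59 at 2-fold, 32 and 25 at 3-fold, and 709 and 376 at limits of 0.4% and 0.02%. In cells of 10000 to 20000 UMIs 348 genes were lower. TMM gave a median log2 ratio of -0.05081. Over the 17 settings the actin list had 19 to 30 members higher and 0 lower, the junction list 8 to 12 higher and 0 to 1 lower, the proteasome list 2 to 16 higher, and the hepatocyte markers 0 higher and 5 to 9 lower. No paired analysis was possible because the high and low cells share 1 library, with no replicate samples to pair. With 1 fish, differences between fish could not be measured, and genes of few UMIs are limited by counting error.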

Other observations

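Immediate early genes split between members. Of 24 measured, 5 were at least 1.5-fold higher in high cells (20.8%, against 11.4% of all genes) and 3 lower (12.5%, against 6.5%). klf6a had a ratio of 2.08, jund 1.93, fosb 1.91 and atf3 1.75, while btg1 had 0.46 and egr1 0.64. These genes can also respond to tissue dissociation, and that part was not tested.

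On chromosome 16, s100a10b and icn lie close to each other in the RefSeq gene order, with s100w between them. s100w had 2 UMIs in high cells and 0 in low cells. The gene on the other side of s100a10b, krtcap2, stood at 68.7 CPM in high cells and 78.0 CPM in low cells (ratio 0.88, interval 0.80 to 0.97). Next to s100a10a on chromosome 19, snx27a had 11 UMIs in high cells and 19 in low cells.

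In the no HCC liver, deep cells held hpx at 10206 CPM, thrsp at 8970 CPM, krt18 at 127 CPM and lgals2b at 10.8 CPM, and flna at 0 UMIs. These genes lay on the side of the HepABC low cells, but other named genes did not. elovl6 stood at 134 CPM in no HCC, against 18.9 CPM in HepABC high cells and 2.34 CPM in low cells. hmgcra stood at 21.2 CPM (21.7 and 3.21 CPM) and gpx4a at 4173 CPM (5363 and 2432 CPM). The genes are examples and do not place the no HCC liver with either group.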
